A study of Mus musculus with 6 samples.

Results

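The EGF receptor family and its ligands were followed here in a pair of related mouse keratinocyte lines, as 10 genes among 24982 listed in each RNA-seq library. They were taken by gene symbol and comprise 3 receptor genes (Egfr, Erbb2 and Erbb3) and 7 ligand genes (Egf, Tgfa, Hbegf, Areg, Ereg, Btc and Epgn). The KSFM-Ca2+ cells are an untreated C57BL/6 line that grew out of neonatal skin in a keratinocyte medium low in calcium. The DKSFM cells descend from them, being the few that survived a move into a defined medium with more calcium and then grew on in it. Each line was sequenced in 3 libraries, and the question was how gene expression differs between the line derived in low calcium and the adapted one. Medium, calcium, time in culture and selection of surviving cells all differ between the lines and cannot be told apart. Neither the labels nor the RNA-seq methods say whether these replicates were separate cultures, so the p-values measure only the spread between these libraries, which may be technical. Whether EGF was added to either medium is not given in the sources used here.

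The EGF receptor and its relatives are tyrosine kinases that pair up at the cell surface when a ligand binds. Most ligands are made as membrane-bound precursors and are released by proteases, after which the paired receptors pass the signal on through Ras and ERK and through PI3-kinase. In the epidermis this pathway is known for driving keratinocyte growth and migration, and keratinocytes make several of the ligands themselves.

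The measured value was coverage, the depth of reads per base of a gene, listed in steps of 0.1. Summed over all genes it was 1601676, 1238411 and 1057750 for the KSFM-Ca2+ replicates, in order, and 1174348, 1239438 and 1170675 for those of DKSFM cells. Values below are normalized for this difference in depth unless they are called listed coverage. The labelled cell type was checked against marker genes. The basal keratinocyte markers Krt14 and Krt5 averaged 11975 ± 225 and 4684 ± 26.1 in KSFM-Ca2+ cells and 29719 ± 1517 and 11148 ± 791 in DKSFM cells (normalized coverage, SD, n = 3 libraries). Trp63, Itga6 and Itgb4 averaged 404, 258 and 321 in KSFM-Ca2+ cells and 443, 285 and 192 in DKSFM cells. All 5 basal markers were thus abundant in both lines. Among 7 fibroblast markers, the defining genes Col1a1, Col1a2, Col3a1, Dcn and Lum were listed at 0 in every library. The other members of that list were detected, Twist2 at a mean normalized coverage of 7.34 in KSFM-Ca2+ cells and 0.0354 in DKSFM cells, and Pdgfra at 1.11 and 2.22.

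A total of 12409 genes reached 0.5 units of normalized coverage in 3 or more libraries and were tested with limma on log2(coverage + 0.1), so that fold changes of low genes are understated. Of the 10 genes of the receptor and ligand set 9 were tested, and Egf was not. At an adjusted p under 0.01 (limma, Benjamini-Hochberg), 4 of the 9 were higher and 5 were lower in DKSFM cells. Over all tested genes 72.6% passed this threshold, 35.5% higher and 37.1% lower in DKSFM cells. With a fold of at least 2 as well, 2 of the 9 were higher and 4 were lower, where 23.7% of all tested genes passed, 13.2% higher and 10.5% lower. That balance turned under quantile normalization, with 1461 genes higher and 1486 lower. The libraries of the lines did not overlap for any of the 9, which was also so for 83.3% of all tested genes. Passing the threshold was thus common among all genes. In bulk RNA fewer cells that express a gene and less RNA per cell cannot be told apart.

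**Figure D1:**
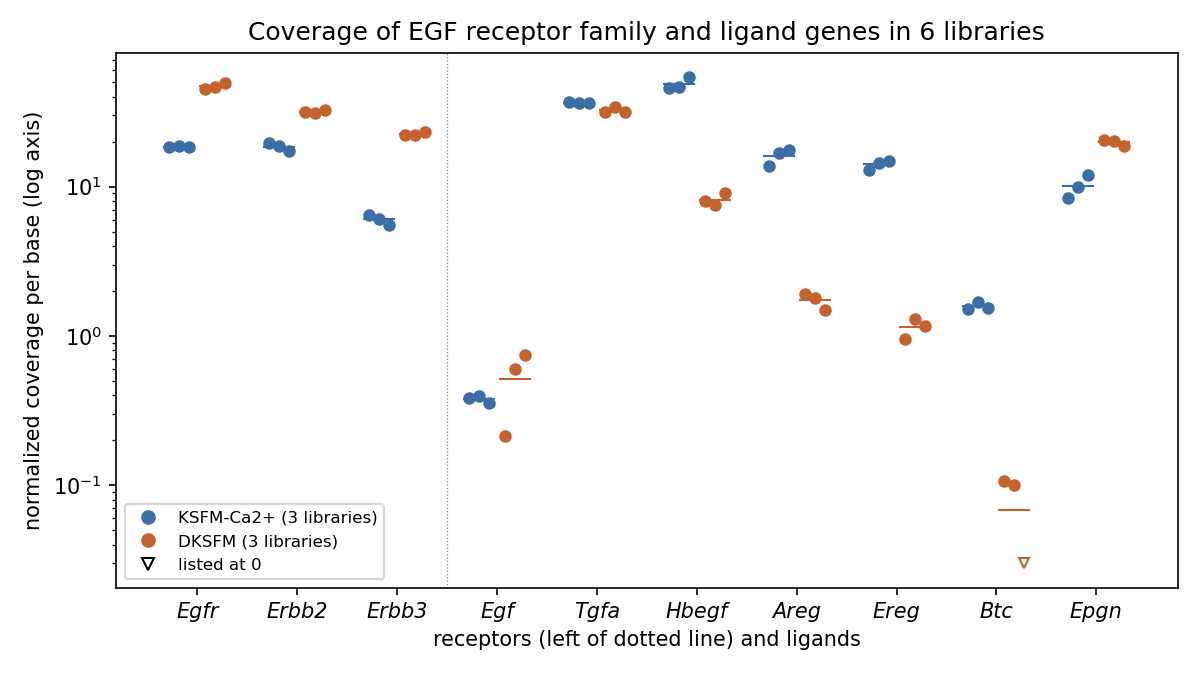
Normalized coverage per base (log axis) of the 3 receptor and 7 ligand genes in each of 6 libraries, with a line at each mean; an open triangle marks a value listed at 0. The receptors and Epgn sit higher in DKSFM libraries, and Hbegf, Areg, Ereg and Btc sit far lower.

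All 3 receptor genes rose in DKSFM cells. Egfr, on chromosome 11, encodes the receptor that binds every one of the 7 ligands, and its normalized coverage was 18.4, 18.8 and 18.4 in KSFM-Ca2+ replicates 1 to 3 and 45.3, 46.2 and 49.1 in DKSFM replicates 1 to 3. The 3 DKSFM values all lay more than 2-fold above the highest KSFM-Ca2+ value. The fitted log2 fold change was 1.33 (SE 0.04, limma adjusted p = 4.87e-08). Relative to all tested genes, mean Egfr coverage moved from the 43.7th to the 64.6th percentile. Erbb2, also on chromosome 11, encodes a partner receptor with no known soluble ligand of its own. Its normalized coverage was 19.5, 18.8 and 17.2 in KSFM-Ca2+ cells and 31.7, 31.1 and 32.5 in DKSFM cells. The lines did not overlap, and the change was the smallest among the receptors, with a log2 fold change of 0.78 (SE 0.06, limma adjusted p = 3.60e-06). Erbb3, on chromosome 10, encodes a receptor for neuregulins whose own kinase is weak. Its normalized coverage was 6.48, 6.03 and 5.55 in KSFM-Ca2+ cells and 22.2, 22.2 and 23.2 in DKSFM cells. All DKSFM libraries stood above 3 times the highest KSFM-Ca2+ library, and the log2 fold change was 1.89 (SE 0.07, limma adjusted p = 8.46e-08). Erbb4, the remaining receptor of the family, was listed at 0 in all 6 libraries.

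Summed over the 3 receptor genes, normalized coverage was 44.4, 43.6 and 41.2 in KSFM-Ca2+ libraries and 99.3, 99.4 and 105 in DKSFM libraries. The balance among the receptors shifted as well. Erbb2 made up 42.9% ± 1.05 of the summed receptor coverage in KSFM-Ca2+ cells and 31.4% ± 0.491 in DKSFM cells (SD, n = 3 libraries), while Erbb3 went from 14.0% ± 0.567 to 22.3% ± 0.111. The share of Egfr was 43.1% ± 1.59 in KSFM-Ca2+ cells and 46.3% ± 0.584 in DKSFM cells. Egfr and Erbb2 were thus about level in KSFM-Ca2+ cells, and in DKSFM cells there were 1.47 units of Egfr coverage for each unit of Erbb2. These shares are given as a description and were not tested.

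The ligands moved in both directions, and most fell. Hbegf, on chromosome 18, encodes the heparin-binding EGF-like factor, and its normalized coverage was 45.7, 46.2 and 53.9 in KSFM-Ca2+ cells and 7.96, 7.49 and 9.12 in DKSFM cells. The highest DKSFM library was below every KSFM-Ca2+ library by several fold. The log2 fold change of Hbegf was -2.55 (SE 0.09, limma adjusted p = 6.74e-08). Areg, on chromosome 5, encodes amphiregulin, known as an autocrine growth factor of keratinocytes. Its normalized coverage was 13.8, 16.7 and 17.6 in KSFM-Ca2+ cells and 1.91, 1.80 and 1.48 in DKSFM cells. Again no DKSFM library came near a KSFM-Ca2+ library, and the log2 fold change was -3.14 (SE 0.13, limma adjusted p = 1.35e-07). Ereg, the gene of epiregulin and a neighbour of Areg, had a normalized coverage of 13.0, 14.4 and 14.9 in KSFM-Ca2+ cells and 0.955, 1.30 and 1.16 in DKSFM cells. It fell further than Hbegf or Areg did, with a log2 fold change of -3.52 (SE 0.12, limma adjusted p = 6.41e-08).

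Btc, the gene of betacellulin, was low in KSFM-Ca2+ cells and close to absent from the DKSFM libraries. Its listed coverage was 2.0, 1.7 and 1.3 in KSFM-Ca2+ replicates 1 to 3 and 0.1, 0.1 and 0 in DKSFM replicates 1 to 3. The DKSFM values lie at or below 1 listing step, so the fitted log2 fold change of -3.39 (SE 0.32, limma adjusted p = 2.11e-05) depends on the constant added before the logarithm. It was -1.88 with a constant of 0.5 and -1.27 with a constant of 1. Taking the DKSFM libraries at no more than 0.15, Btc was at least 9.26-fold lower in them. Egf, the founding ligand, was near the floor in both lines. Its listed coverage was 0.5, 0.4 and 0.3 in KSFM-Ca2+ libraries and 0.2, 0.6 and 0.7 in DKSFM libraries. The lines overlapped, and no difference was detectable at this depth.

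Epgn was the only tested ligand gene of the receptor and ligand set, which leaves out the neuregulins, that rose. It encodes epigen, a ligand of low affinity, and its normalized coverage was 8.38, 9.99 and 11.9 in KSFM-Ca2+ cells and 20.5, 20.3 and 18.8 in DKSFM cells. The lines did not overlap, although the KSFM-Ca2+ libraries were spread widely for this gene. The log2 fold change was 0.98 (SE 0.12, limma adjusted p = 8.36e-05), with a 95% confidence interval of 0.71 to 1.25 that holds the 2-fold mark. Tgfa, on chromosome 6, encodes transforming growth factor alpha, a principal ligand of epidermal keratinocytes. Its normalized coverage was 36.6, 36.5 and 36.3 in KSFM-Ca2+ cells and 31.5, 34.3 and 31.7 in DKSFM cells. The DKSFM libraries were slightly lower without overlap, and the log2 fold change was -0.17 (SE 0.04, limma adjusted p = 0.00820). This small difference passed the threshold in the fit described here and missed it in 9 of 16 alternative settings. With 1 library left out at a time it ran from -0.20 to -0.14 and passed only without DKSFM replicate 2.

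**Figure D2:**
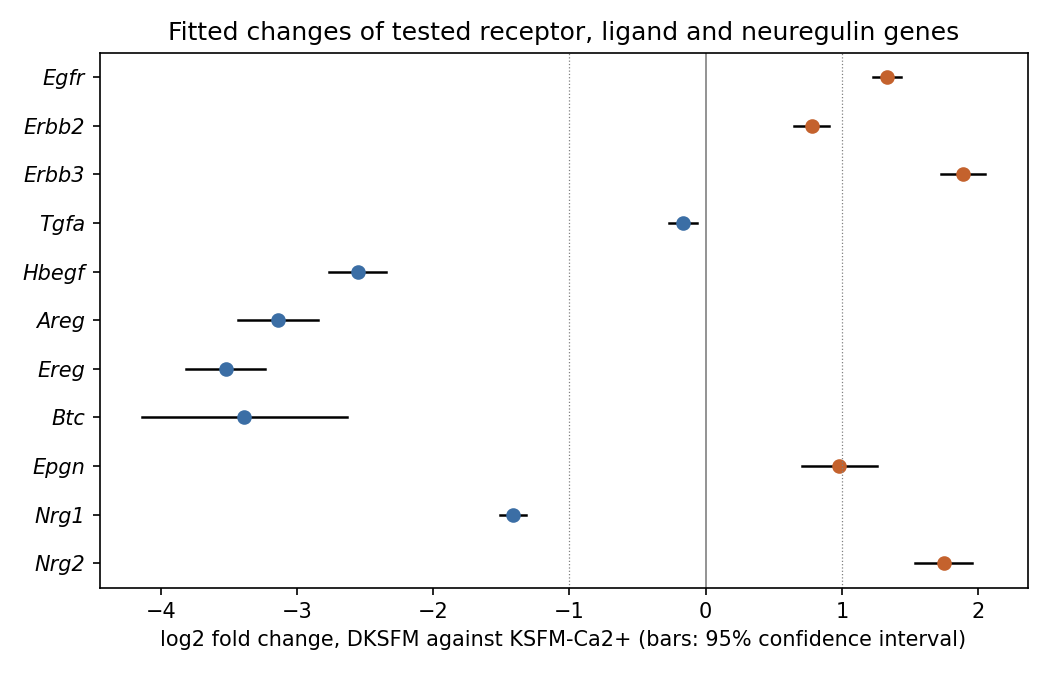
Fitted log2 fold changes of DKSFM against KSFM-Ca2+ cells for the 9 tested receptor and ligand genes and the 2 tested neuregulin genes, with 95% confidence intervals; dotted lines mark a fold of 2. The receptors, Epgn and Nrg2 lie to the right of 0, Tgfa lies just to the left of it, and Ereg lies farthest left at -3.52.

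Coverage is given per base, so levels were set side by side between genes. How it was computed is not given in the sources used here, and its comparability between genes was not tested. In KSFM-Ca2+ cells the mean normalized coverage ran from Hbegf (48.6) and Tgfa (36.5) through Egfr, Erbb2, Areg and Ereg (18.5, 18.5, 16.0 and 14.1) to Epgn (10.1), Erbb3 (6.02), Btc (1.58) and Egf (0.377). Each of Egfr, Erbb2 and Areg overlapped in its libraries with the next gene in this order, and no other neighbouring pair did. In DKSFM cells the order was Egfr (46.9), Tgfa (32.5), Erbb2 (31.8), Erbb3 (22.5), Epgn (19.8), Hbegf (8.19), Areg (1.73), Ereg (1.14), Egf (0.518) and Btc (0.0687). Only Tgfa and Erbb2 overlapped with each other there. The ligand Hbegf led in KSFM-Ca2+ cells and the receptor Egfr led in DKSFM cells.

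The mixture of ligand RNA changed along with its amount. Hbegf made up 38.2% ± 1.41 of the summed ligand coverage in KSFM-Ca2+ cells and 12.8% ± 1.56 in DKSFM cells (SD, n = 3 libraries). Tgfa went from 28.8% ± 2.03 to 50.8% ± 1.13, and Epgn from 7.90% ± 0.851 to 31.0% ± 1.33. The level of Tgfa was itself slightly lower in DKSFM cells, and its larger share is of a smaller sum. Areg and Ereg held 12.6% ± 0.895 and 11.1% ± 0.342 in KSFM-Ca2+ cells and 2.70% ± 0.335 and 1.78% ± 0.239 in DKSFM cells. The summed normalized coverage of the 7 ligands was 119, 126 and 137 in KSFM-Ca2+ libraries and 63.2, 65.9 and 63.0 in DKSFM libraries. Ligand coverage per unit of receptor coverage was 2.68, 2.89 and 3.32 in KSFM-Ca2+ libraries and 0.636, 0.662 and 0.601 in DKSFM libraries. For these genes, summed coverage was higher for ligands than for receptors in each KSFM-Ca2+ library and lower in each DKSFM library. The order in DKSFM cells depends on which ligands are summed, since Erbb3 binds neuregulins and these are left out of the sum. With the 4 neuregulin genes added, ligand coverage per unit of receptor coverage was 5.78, 6.27 and 6.97 in KSFM-Ca2+ libraries and 1.26, 1.29 and 1.23 in DKSFM libraries. It was then above 1 in both lines, and still lower in each DKSFM library than in any KSFM-Ca2+ library.

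**Figure D3:**
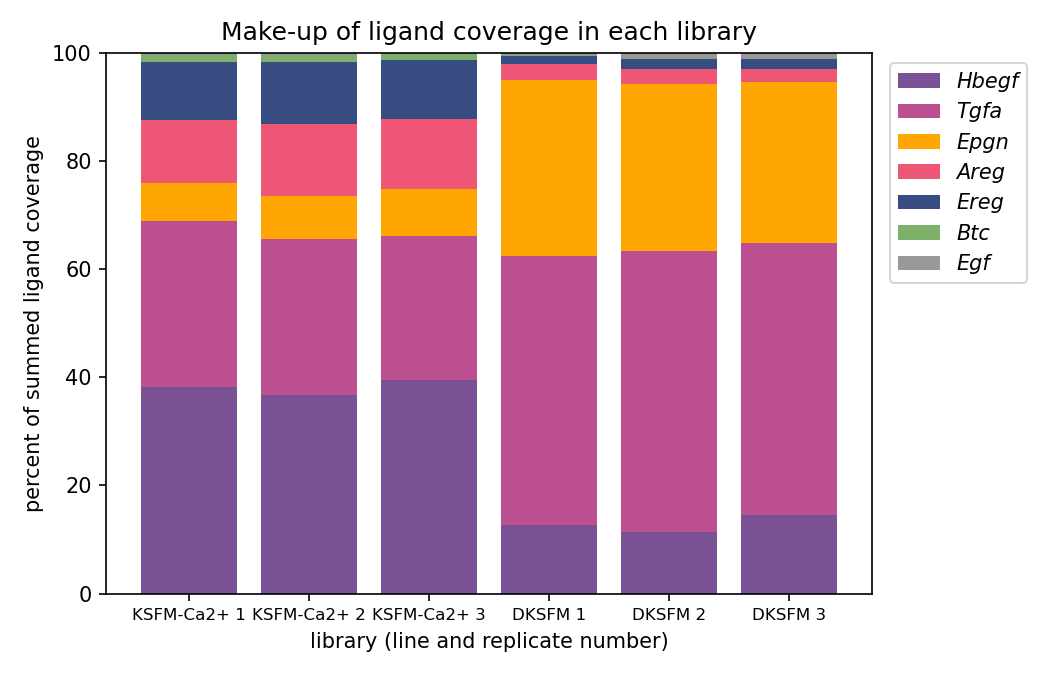
Share of each ligand gene in the summed normalized ligand coverage (percent) of each library. Hbegf and Tgfa fill most of the 3 KSFM-Ca2+ bars, and Tgfa and Epgn fill most of the 3 DKSFM bars.

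Epgn, Ereg, Areg and Btc lie within 376 kb of chromosome 5 (91027464 to 91402994, mm10), yet Epgn rose while the other members of the cluster fell. The 250 bases before the RefSeq start of Areg and Btc and 197 bases before Epgn are printed because these neighbours moved in opposite directions. The Epgn stretch is shorter because the GENCODE start of the gene lies upstream of the RefSeq start, and it ends before both. They are RefSeq-based windows on GRCm38.p6, the assembly of mm10, read 5′ to 3′ along each gene's own strand, from chr5:91139349-91139598 (plus strand), chr5:91402995-91403244 (minus strand) and chr5:91027267-91027463 (plus strand). Capitals mark the only match to a searched motif in these stretches.
Areg: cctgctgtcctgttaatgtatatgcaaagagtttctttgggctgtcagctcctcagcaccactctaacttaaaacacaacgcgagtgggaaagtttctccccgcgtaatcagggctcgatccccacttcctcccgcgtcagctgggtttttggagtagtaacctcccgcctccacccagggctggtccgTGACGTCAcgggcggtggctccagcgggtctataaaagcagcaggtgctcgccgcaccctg
Btc: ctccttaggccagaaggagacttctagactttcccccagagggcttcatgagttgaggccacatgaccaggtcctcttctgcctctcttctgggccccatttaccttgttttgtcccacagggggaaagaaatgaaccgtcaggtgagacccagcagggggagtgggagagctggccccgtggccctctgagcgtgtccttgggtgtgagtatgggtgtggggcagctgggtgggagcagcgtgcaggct
Epgn: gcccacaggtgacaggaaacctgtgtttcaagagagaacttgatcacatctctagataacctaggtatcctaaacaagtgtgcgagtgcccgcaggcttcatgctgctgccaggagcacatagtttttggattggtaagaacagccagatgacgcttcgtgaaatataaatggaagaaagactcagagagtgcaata

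The capitals in the Areg window spell the cyclic AMP response element TGACGTCA, whose first base lies at position -61 from the start of the gene. Across all 32851 windows of 300 bases, which run from 250 bases before to 50 after a start, 1.79% held this motif on either strand. The AP-1 motif TGANTCA, the E-box CACGTG and an NF-kappaB-type motif were searched on both strands as well. They occurred in 7.81%, 7.15% and 20.7% of all windows. Windows were matched for 7 of the 10 genes, with 2 for Egf. Erbb3 and Ereg had none, and the sequence of Hbegf was left out of the search. Besides the element before Areg, the only other match in the 8 windows was an NF-kappaB-type motif that began at position -113 before Erbb2. A match is a description of the letters and not a binding site or a cause, and these data hold no measure of binding.

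The stretch of chromosome 5 within 500 kb of the ligand cluster holds 17 listed genes, of which 12 were tested, 8 of them not ligand genes. Of those 8 neighbours, 6 fell and none rose at an adjusted p under 0.01, where 37.1% of all tested genes were lower and 35.5% higher. The strongest falls were in the neutrophil-attracting chemokine genes on the Epgn side of the cluster. Cxcl1 had a mean normalized coverage of 1812 ± 168 in KSFM-Ca2+ cells and 10.9 ± 0.823 in DKSFM cells (SD, n = 3 libraries), a log2 fold change of -7.36 in limma. Cxcl5 (-6.93), Cxcl2 (-5.95), Cxcl3 (-4.96) and Ppbp (-4.86) also fell in log2 fold change. All 5 chemokine genes changed more than Areg or Ereg did. Rassf6, at the far end of the window, fell by 0.89 on the log2 scale (limma adjusted p = 0.00140), and this passed in all alternative settings but 1. Mthfd2l, which lies next to Epgn, had a log2 fold change of -0.18 (limma adjusted p = 0.204), and Parm1, beyond Btc, had 0.10 (limma adjusted p = 0.532). Epgn and Mthfd2l thus sat between groups of genes that fell on both sides. Over a wider stretch of 10 Mb on either side, the median log2 fold change of tested genes, less that of all genes, was -0.17 around Epgn and -0.14 around Areg, Ereg and Btc. Around the other members it ran from -0.19 at Hbegf to 0.35 at Tgfa, with 0.15 at Egfr, -0.15 at Erbb2, 0.30 at Erbb3 and 0.22 at Egf.

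**Figure D4:**
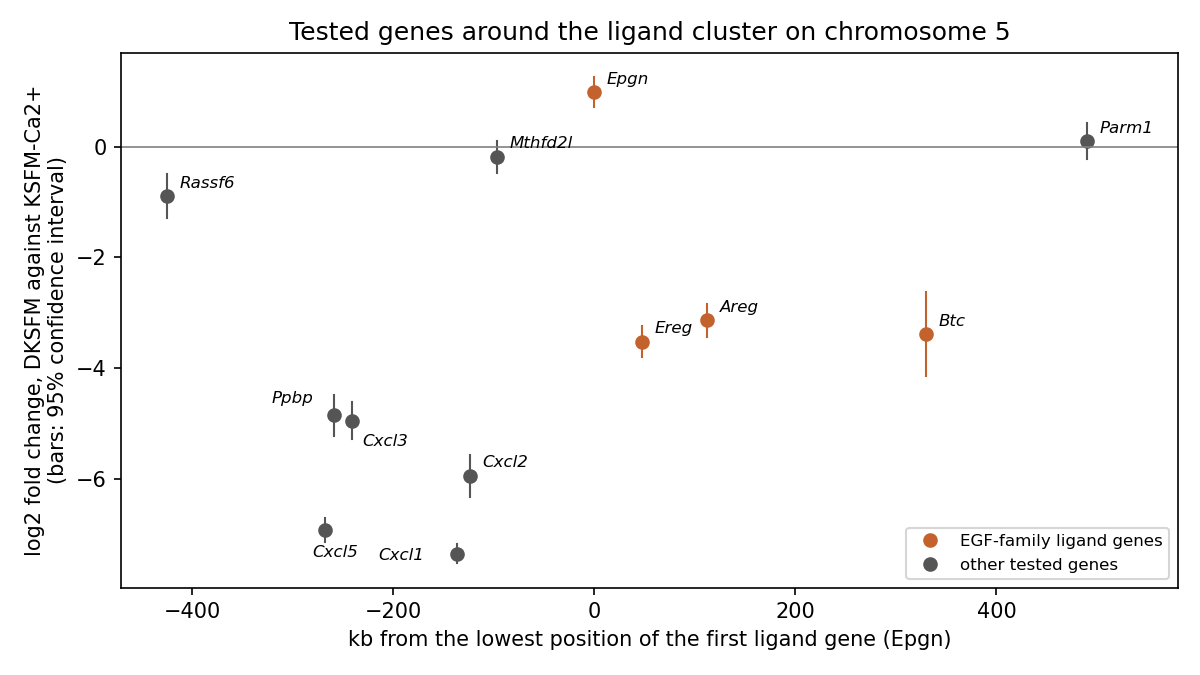
Log2 fold change with 95% confidence interval for the 12 tested genes around the ligand cluster on chromosome 5, against distance in kb from the lowest position of Epgn. Epgn lies above 0 at 0.98, between Mthfd2l near 0 and the fallen genes Ereg, Areg and Btc.

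The neuregulins, ligands of Erbb3 and Erbb4, also went in opposite directions. Nrg1 was the most abundant ligand gene of the wider family, with a normalized coverage of 134, 144 and 147 in KSFM-Ca2+ cells and 52.1, 53.0 and 54.6 in DKSFM cells. No libraries overlapped, and the log2 fold change was -1.41 (SE 0.04, limma adjusted p = 2.62e-08). Nrg2 stood at 2.90, 3.07 and 2.83 in KSFM-Ca2+ cells and 9.66, 9.49 and 11.1 in DKSFM cells. It rose by a log2 fold change of 1.75 (SE 0.09, limma adjusted p = 5.08e-07), from a level far below that of Nrg1. Coverage of Nrg1 was 48.5 ± 3.09 times that of Nrg2 in KSFM-Ca2+ cells and 5.29 ± 0.349 times in DKSFM cells (SD, n = 3 libraries). Nrg3 was listed at 0 throughout, and Nrg4 at no more than 0.1.

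Genes for ligand shedding, the step that frees ligands from the membrane, changed in both directions. Of 10 listed, 9 were tested, and 4 rose and 4 fell at an adjusted p under 0.01, beside 35.5% higher and 37.1% lower among all tested genes. Their median log2 fold change was 0.13, beside a median of -0.00118 over all tested genes. The metalloprotease gene Adam12 averaged 27.2 ± 2.57 in KSFM-Ca2+ cells and 7.15 ± 0.732 in DKSFM cells (normalized coverage, SD, n = 3 libraries), a log2 fold change of -1.91 (limma adjusted p = 4.33e-07). The rhomboid protease gene Rhbdl2 went from 17.1 ± 2.32 to 6.65 ± 0.378, a log2 fold change of -1.34 (limma adjusted p = 4.64e-06). No shedding gene rose by 2-fold. Adam17 and Adam10, named here for their standing as the main sheddases after their values were seen, rose with log2 fold changes of 0.66 and 0.65 (limma adjusted p = 9.03e-07 and 1.39e-06). Adam17, whose known substrates include the products of Hbegf, Areg and Ereg, thus rose while these ligand genes fell.

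In the signal relay from the receptors to Ras, ERK and PI3-kinase, all 24 listed genes were tested. Of these, 12 rose, 5 fell and 7 did not pass the threshold, where 35.5% of all tested genes were higher, 37.1% lower and 72.6% past it either way. The median of their log2 fold changes was 0.09. The largest rise was in Pik3r1, the gene of a regulatory subunit of PI3-kinase, whose normalized coverage averaged 10.5 ± 0.411 in KSFM-Ca2+ cells and 86.7 ± 3.19 in DKSFM cells (SD, n = 3 libraries). Its log2 fold change was 3.03 (SE 0.05, limma adjusted p = 1.26e-09). Gab1, a docking protein that couples the receptors to PI3-kinase, rose from 16.6 ± 1.27 to 48.0 ± 2.16, a log2 fold change of 1.53 (limma adjusted p = 1.73e-07). No relay gene fell by 2-fold. The lowest log2 fold change of a relay gene was -0.77. With only the 4 libraries whose deposited names say combined, 3 relay genes rather than 5 were counted as lower and 9 rather than 12 as higher.

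Negative regulators of the receptors and of ERK also moved both ways. Of 19 listed genes 17 were tested, and 6 rose, 7 fell and 4 did not pass, near the 35.5% higher and 37.1% lower of all tested genes. The median of their log2 fold changes was -0.19. Lrig3 and Lrig2, relatives of the receptor antagonist Lrig1, rose with log2 fold changes of 2.21 and 1.11 (limma adjusted p = 8.58e-08 and 5.16e-06). Their normalized coverage went from 2.73 ± 0.125 to 13.0 ± 0.878 and from 5.08 ± 0.148 to 11.1 ± 1.05 (SD, n = 3 libraries). Dusp6, a phosphatase that acts on ERK and is itself induced by ERK signalling, was 31.2 ± 1.78 in KSFM-Ca2+ cells and 7.04 ± 1.16 in DKSFM cells. Its log2 fold change was -2.14, and that of Spred2, an inhibitor of the Ras to ERK step, was -1.09 (limma adjusted p = 4.85e-07 and 5.41e-06). Lrig1 itself, the most abundant of the 3 Lrig genes and named after its value was seen, averaged 130 in KSFM-Ca2+ cells and 121 in DKSFM cells and did not pass the threshold (log2 fold change -0.11, limma adjusted p = 0.0580). In the same 4 libraries, 2 regulators rather than 7 passed the threshold as lower and 5 rather than 6 as higher.

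Among transcriptional targets of ERK more genes fell than rose. Of 19 listed genes 17 were tested, all passed the threshold, and 12 fell and 5 rose, where 37.1% of all tested genes were lower and 35.5% higher. The median of their log2 fold changes was -1.04. Of these, 9 fell and 3 rose by at least 2-fold, beside 10.5% and 13.2% of all tested genes. Whether the list differs from other genes was not tested. Etv4 and Etv5, ETS-family transcription factors downstream of receptor tyrosine kinases, fell the most. Etv4 averaged 194 ± 11.6 in KSFM-Ca2+ cells and 14.1 ± 2.15 in DKSFM cells (normalized coverage, SD, n = 3 libraries), a log2 fold change of -3.78 (limma adjusted p = 1.46e-08). Etv5 went from 14.2 ± 0.158 to 0.762 ± 0.215, a log2 fold change of -4.08 (limma adjusted p = 2.08e-07). The value for Etv5 depends on the constant added before the logarithm. With constants of 0.5 and 1 it was -3.55 and -3.11, a smaller fall than that of Etv4 (-3.74 and -3.70). Egr3, an early response transcription factor, went the other way. Its listed coverage was 0.9, 0.4 and 0.7 in KSFM-Ca2+ libraries and 14.2, 15.5 and 13.6 in DKSFM libraries, a log2 fold change of 4.41 (limma adjusted p = 3.58e-07). This value also depends on the added constant, and was 3.79 with a constant of 0.5 and 3.30 with a constant of 1. Epha4, an ephrin receptor gene, rose as well, at 1.44 (limma adjusted p = 1.64e-07). Dusp6 and Spry2 are counted in this list and among the negative regulators. Where a coverage of 0.5 or more was asked of every library, 3 targets rather than 5 were counted as higher.

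**Figure D5:**
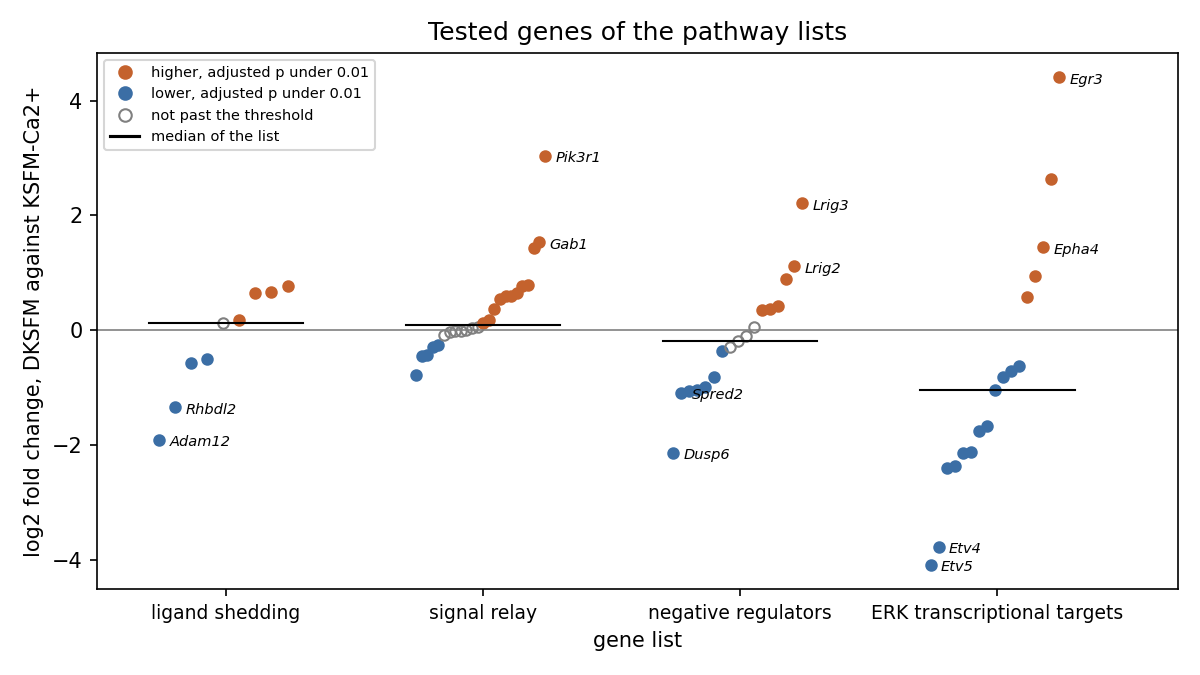
Log2 fold changes of the tested genes of 4 pathway lists, filled where the adjusted p was under 0.01 (limma), with a line at each median. The ERK targets have a median of -1.04, while the medians of the other lists lie between -0.19 and 0.13.

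The genes whose pattern over the 6 libraries was most like that of Egfr, by Euclidean distance of log2 values centred on each gene's mean, were Zfp874b (0.0767), Sox4 (0.0779) and Il13ra1 (0.0859). Sox4 encodes a transcription factor and had a normalized coverage of 44.2 ± 0.615 in KSFM-Ca2+ cells and 109 ± 2.69 in DKSFM cells (SD, n = 3 libraries). For Tgfa, which had the highest mean over all libraries among the 7 ligand genes of the set, the nearest were Reep5 (0.0443), Taok1 (0.0454) and Tm9sf3 (0.0488), which, like it, differed little between the lines.

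Markers of other cell types moved between the lines too. The summed normalized coverage of the 7 fibroblast markers was 8.76, 8.21 and 8.38 in KSFM-Ca2+ libraries and 2.44, 2.10 and 2.23 in DKSFM libraries. Its most abundant gene was Twist2, listed at 10, 7.4 and 6.0 in KSFM-Ca2+ libraries and at 0.1, 0 and 0 in DKSFM libraries. The fibroblast collagen genes were at 0, as given above. The 4 endothelial markers summed to 2.82, 3.16 and 3.30 in KSFM-Ca2+ libraries and 8.28, 8.29 and 7.42 in DKSFM libraries, nearly all of it Pecam1, with the defining gene Cdh5 at 0. The 6 immune markers summed to 1.30, 1.58 and 2.01 in KSFM-Ca2+ libraries, most of it Cd74. They summed to 0, 0.30 and 0 in DKSFM libraries, where Cd74 was listed at 0 throughout. In both lines Cd3e was at 0 and Ptprc was at no more than 0.1. The 6 melanocyte and 3 Merkel cell markers summed to no more than 0.890 and 1.07 in any library. The part of these small signals in the receptor and ligand results was not tested.

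Some of these genes overlap others on the opposite strand. Exons of Erbb2, Egf, Tgfa and Ereg share between 9 and 607 bases with antisense neighbours, and exons of Nrg1 share 482. The libraries were directional, and per the methods the reads were aligned with a first-strand setting. How the listed coverage was then computed from the alignments is not given in the sources used here.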

How the data were processed

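RNA from 3 KSFM-Ca2+ and 3 DKSFM libraries was sequenced as directional poly(A) libraries. The authors deposited 1 coverage value per gene and library, the unit analysed here, and per the labels and methods used bcl2fastq, STAR, Salmon and DESeq2 with mm10 and RefSeq genes (run through BaseSpace apps; versions of the tools themselves are not given in the sources used here). How coverage was derived, and what combined in 4 deposited names means, is not given there either. Coverage is not a read count, so limma replaced the authors' DESeq2.

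Libraries were scaled by trimmed means of M values (30% of M and 5% of A values trimmed at each end, on library totals). Genes that reached a normalized 0.5 in 3 or more libraries were fitted on log2(coverage + 0.1) with limma 3.58.1 in R 4.3.3 (linear model, intensity trend, no covariate, Benjamini-Hochberg over 12409 genes, threshold 0.01). The steps were tested on simulated data. Python 3.11.15 and matplotlib 3.10.9 drew the figures. GENCODE genes matched 24490 of 24982 symbols and gave positions; promoter windows came from a RefSeq table on GRCm38.p6. A planned protein motif search was not run, as no protein table was used here.

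The members and gene lists were chosen with earlier results of these data known. Named were all members and neuregulins, and in each pathway list up to 2 genes per direction, those with the largest changes past the threshold that were 2-fold or more and averaged 10 or more where higher. Tested neighbours on chromosome 5, basal markers, other markers with a mean of at least 1, and the 3 genes nearest to Egfr and to Tgfa were also named. Adam10, Adam17 and Lrig1 fall outside this rule and were named after their values were seen. The values of 1 gene of the lists are not reported here. Alternatives were other scalings (relative log expression, totals, quantile), other filters, pseudocounts of 0.5 and 1, no trend, a replicate block, each library left out, and the combined libraries alone.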

Additional observations from a re-analysis of the deposited data

How the results depend on the processing

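Under 16 alternative settings (15 for Btc, which a filter on every library removes), all 9 tested receptor and ligand genes kept their direction, and all but Tgfa stayed past the threshold. Tgfa missed it under relative log expression scaling (-0.15), without a trend (-0.17), with the replicate block (-0.17), in the combined libraries alone (-0.16) and in 5 of the 6 fits without 1 library (-0.20 to -0.14 over the 6). Its adjusted p in limma ran from 0.00268 to 0.113 over all alternatives. The cause was not tested. Epgn ranged from 0.73 to 1.11. The number of genes at least 2-fold higher in DKSFM cells was 1636, or 1032 when every library had to pass the filter, which removes genes absent from 1 line. Quantile normalization gave 1461 higher and 1486 lower, so the larger count was then the lower one, against 1636 and 1307. Of the scalings, only quantile normalization can change a gene's share of ligand or receptor coverage. It moved 2 of 20 shares by more than 1 SD, that of Egf in KSFM-Ca2+ cells from 0.298% to 0.356% and that of Erbb3 in DKSFM cells from 22.3% to 22.0%. The replicate numbers did not pair the libraries: same-numbered deviations from the line means correlated at -0.00508, 0.0239 and -0.00610. With the replicate block 1641 genes were higher and 1304 lower. Pathway counts, neighbours and markers were put through the alternatives after the data were seen. In the combined libraries alone 3 relay genes rather than 5 and 2 negative regulators rather than 7 were lower, with fewer libraries. There 9 relay genes rather than 12 and 5 negative regulators rather than 6 were higher. The filter on every library left 3 ERK targets rather than 5 higher. Parm1, never past the threshold, changed sign under quantile normalization (-0.11). Trp63 and Itga6 missed the threshold in 9 and 8 alternatives. Values near the listing step of 0.1, as for Btc and Egf, bear no precise fold.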
